A study of Mus musculus with 10 samples.

Results

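The renin-angiotensin system genes described here are 6 genes, *Agt*, *Ace*, *Agtr1a*, *Agtr1b*, *Agtr2* and *Mas1*, taken by symbol out of 55453 symbols counted in mouse aortae. They were chosen by name for their place in the pathway, as angiotensin precursor, converting enzyme and angiotensin receptors. No measured value set the choice, but earlier results of these data were known. Counts were found for all 6, and 4 of them passed the filter on low counts that kept 14614 genes for testing.

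RNA-seq was performed on 10 male C57BL/6 mice, with 1 aorta and 1 library per mouse. The young group held 5 mice aged 14.5 weeks and the old group 5 mice aged 92.5 weeks. Mice were bought from the Jackson Laboratory, kept on standard chow and killed at the same time, and each vessel was perfused with saline and freed of perivascular fat before RNA was extracted from the whole wall. Total counts per library ranged from 19640401 to 22886153, with a median of 21803275 in young and 21810951 in old aortae.

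Angiotensinogen is cut by renin to angiotensin I, from which angiotensin-converting enzyme makes angiotensin II, a peptide that constricts arteries through AT1 receptors on smooth muscle. Rodents carry a pair of AT1 receptor genes, while the AT2 receptor and the Mas receptor, which binds angiotensin-(1-7), are known for actions that oppose AT1 signalling. Most circulating angiotensinogen comes from the liver and most renin from the kidney, and vessel walls also hold transcripts of the system.

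Expressed per kilobase of exonic sequence, the level of *Ace* was the highest of the 6 genes, with a normalized count of 2552 ± 269 in young and 2674 ± 568 in old aortae (mean ± SD, n=5 each). The normalized count is the raw count divided by the library's size factor. Averaged over the 10 libraries, 98.0% of tested genes had a lower level per kilobase than *Ace*. *Agtr1b* came next, at 53.8 ± 12.9 per kilobase in young and 74.8 ± 22.9 in old aortae. *Agtr1a* stood at 21.3 ± 4.39 and 17.0 ± 4.64, and *Agt* at 17.4 ± 5.11 and 12.6 ± 4.30 per kilobase. These 2 neighbours in the order did not differ beyond the spread between mice. *Agtr2*, with a mean of 0.653 per kilobase over the 10 libraries, and *Mas1*, with 0.576, had the lowest levels and could not be ordered.

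None of the 4 tested genes passed the comparison of old with young aortae by edgeR's quasi-likelihood F test, in which a gene is called at a Benjamini-Hochberg adjusted p below 0.05 over all tested genes. The same test called 1676 of 14614 genes (11.5%), 947 of them higher (6.48%) and 729 lower (4.99%) in old aortae. With a share of 11.5% over all genes, a count of 0 among 4 genes was read as no result about them. At an unadjusted p below 0.05 edgeR found 0 of the 4. DESeq2 called 0 of the 5 members for which it gave an adjusted p, with 1 at an unadjusted p below 0.05, and limma-voom called 0 of 4, with 0 at an unadjusted p below 0.05. The normalized counts of young and old aortae overlapped for each of the 4 genes, while the groups did not overlap for 1450 of the 14614 tested genes (9.92%). The median log2 fold change of the 4 was −0.12, beside 0.00 over all tested genes.

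**Figure D1:**
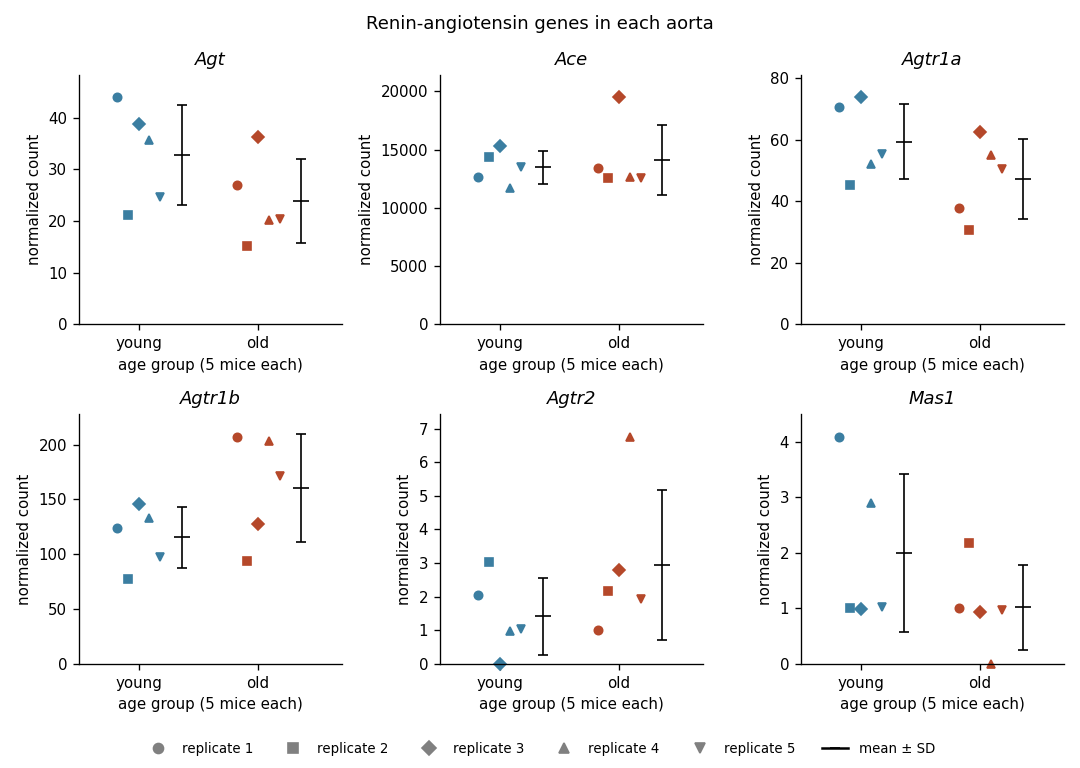
Normalized counts of the 6 genes (vertical axes, each from 0) in 5 young and 5 old aortae, with 1 symbol per mouse and the group mean ± SD beside the points. For each of the 6 genes the range of old aortae overlaps that of young aortae, and *Ace* in old replicate 3 lies at 19470.

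*Agt* encodes angiotensinogen, the substrate from which every angiotensin peptide is cut, and lies at chr8:124556534-124569706 on the minus strand of GRCm38. In young replicates 1 to 5 its normalized counts were 44.0, 21.1, 38.9, 35.7 and 24.6, and in old replicates 1 to 5 they were 27.0, 15.3, 36.3, 20.2 and 20.4. Old replicate 3 lay among the 3 higher young aortae, and young replicates 2, 4 and 5 lay within the range of the old aortae, so that the groups overlapped. The mean was 32.9 ± 9.67 in young and 23.8 ± 8.13 in old aortae (mean ± SD, n=5). The log2 fold change was −0.45 ± 0.28 (SE), with a 95% confidence interval from −1.05 to 0.16 and an edgeR adjusted p of 0.339. The interval runs from 0.483 to 1.11 times the young level, so the test does not show equal levels. Of 1180 tested genes with a mean normalized count within 1.5-fold of that of *Agt*, 116 were called, and the smallest of their changes measured 0.66 on the log2 scale.

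*Agt* is also transcribed in fat and liver, and markers of both tissues varied between libraries. The summed normalized count of 10 adipocyte markers was 40200, 12566, 12934, 21241 and 11990 in young and 6926, 16885, 11114, 9099 and 9564 in old replicates 1 to 5. The highest *Agt* count and the highest adipocyte sum were both in young replicate 1. Old replicate 2 went the other way, with the highest old adipocyte sum and the lowest *Agt* count of all libraries (15.3). None of the 10 markers passed the edgeR test, beside 11.5% called over all tested genes. Their median log2 fold change was −0.92, beside 0.00 over all tested genes, and 1 of the 10 had a value above 0. The most abundant per kilobase was *Cfd*, which encodes adipsin (log2 fold change −1.33 ± 0.47 SE, edgeR adjusted p = 0.105). DESeq2 called 2 of the 10 and limma-voom 1. Without young replicate 1 the log2 fold change of *Agt* was −0.32. The 5 liver markers summed to between 131 and 884 in young and between 136 and 1119 in old aortae, *Alb* (albumin) being the most abundant and none of the 5 called by edgeR. The part of fat or liver RNA in the counts of *Agt* was not tested.

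Of 11 tested genes for factors known to act on *Agt* transcription, among them NF-kB subunits and C/EBP factors, edgeR called 1, beside 11.5% over all tested genes. *Rela*, an NF-kB subunit and the most abundant of the list per kilobase, gave a log2 fold change of −0.15 (edgeR adjusted p = 0.111). The list's median log2 fold change was −0.06.

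*Ren1*, the renin gene, was under the filter and is described as the partner of *Agt*. The raw counts summed to 79 over the 5 young libraries and to 32 over the 5 old libraries. Its normalized counts were 9.20, 7.04, 24.9, 13.5 and 24.6 in young and 4.00, 5.45, 11.2, 3.86 and 6.81 in old replicates 1 to 5. Young replicates 3 and 5 were the highest, and old replicate 3 lay above young replicates 1 and 2. Without the filter edgeR gave a log2 fold change of −1.31 ± 0.42 for *Ren1* (SE, adjusted p = 0.0621), and DESeq2 gave an adjusted p of 0.0590. With the filter, *Ren1* was tested in 6 of the edgeR fits that left out 1 mouse. It was called in 2 of these, without young replicate 1 and without young replicate 2, and the adjusted p ran from 0.0400 to 0.137 over the 6 fits. Those 2 mice had the lowest young values (9.20 and 7.04). In the remaining fits *Ren1* stayed under the filter, so this range does not cover every mouse left out. The 2 calls are therefore no support for a difference. The mean log2 ratio of *Agt* to *Ren1* counts, with 0.5 added to each count, was 1.14 ± 0.85 in young and 1.89 ± 0.52 in old aortae (mean ± SD, n=5). An exact two-sided permutation test of the difference of 0.75 gave p = 0.111, or 0.167 adjusted over the 6 ratios tested, and without young replicate 5 the difference was 0.46.

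*Ace* encodes angiotensin-converting enzyme, which makes angiotensin II and also degrades bradykinin, and lies at chr11:105967945-105989964 on the plus strand. Its normalized counts were 12633, 14398, 15296, 11675 and 13463 in young and 13397, 12584, 19470, 12664 and 12567 in old replicates 1 to 5. Old replicate 3 stood above every other aorta, and the other 4 old aortae lay inside the young range. The log2 fold change was 0.08 ± 0.13 (SE), with a 95% confidence interval from −0.20 to 0.35 and an edgeR adjusted p of 0.756. Without old replicate 3 the log2 fold change was −0.07 (edgeR adjusted p = 0.638), so the sign of the estimate rested on that library. An antisense gene, *Gm11651*, overlaps 5.58% of the exonic sequence of *Ace*, and the strand setting of the counting is not given in the sources used here.

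Old replicate 3 was also high in immune cell markers. The 8 macrophage markers summed to 10246, 8937, 9161, 8478 and 7620 in young and 10876, 12353, 20772, 12496 and 10232 in old replicates 1 to 5. The 6 lymphocyte markers, of which 2 passed the filter, summed to 278 in old replicate 3 and to between 30.0 and 76.3 in the other 4 old aortae. Whether macrophage or lymphocyte RNA had a part in the *Ace* count of that library was not tested. In bulk RNA, more cells of a type and more RNA per cell cannot be told apart, here or for any gene that follows.

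**Figure D2:**
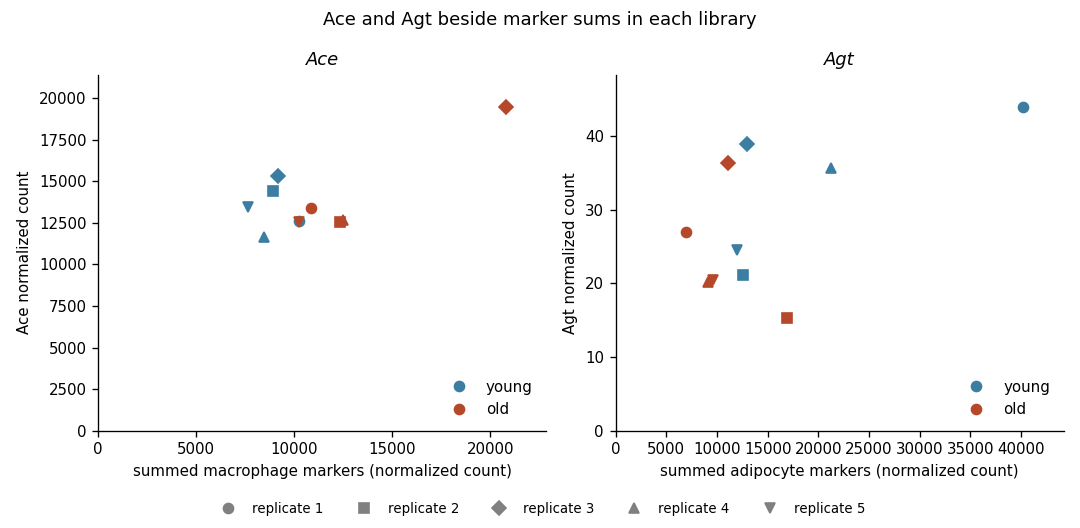
*Ace* against the summed normalized count of 8 macrophage markers (left) and *Agt* against that of 10 adipocyte markers (right), with 1 point per library and both axes in normalized counts from 0. Old replicate 3 lies apart at 19470 for *Ace* and 20772 for the macrophage sum, and young replicate 1 at 44.0 for *Agt* and 40200 for the adipocyte sum.

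The log2 ratio of *Agt* to *Ace* was −8.71 ± 0.51 in young and −9.22 ± 0.27 in old aortae, and the groups overlapped (SD, n=5; exact permutation p = 0.103, adjusted 0.167).

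The AT1 receptor genes *Agtr1a* and *Agtr1b* lie on different chromosomes and encode receptors that bind angiotensin II. Both coding sequences have 1077 bases, of which 978 (90.8%) are identical. Their longest identical run and the 60-base window with the most differences are shown because they bear on whether the counts of the genes can be kept apart. Each lies in a coding exon of GRCm38, and capitals mark the 13 bases that differ in the window. The run is at chr13:30381028-30381093 (plus strand) in *Agtr1a* and chr3:20316301-20316366 (minus strand) in *Agtr1b*. The window is at chr13:30381917-30381976 (plus strand) in *Agtr1a* and chr3:20315418-20315477 (minus strand) in *Agtr1b*.
Identical run of 66 bases: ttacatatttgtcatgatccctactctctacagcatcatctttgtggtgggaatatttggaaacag
Agtr1a window: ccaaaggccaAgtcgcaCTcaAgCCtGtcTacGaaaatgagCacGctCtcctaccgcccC
Agtr1b window: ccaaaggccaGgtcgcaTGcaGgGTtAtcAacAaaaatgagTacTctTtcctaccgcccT

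Over all exonic sequence, 1.27% of the 50-base windows of *Agtr1a* and 1.55% of those of *Agtr1b* occur in a transcript of another gene. How the counting treated reads that fit several places is not given in the sources used here. A read of 50 bases that lies in the identical run cannot be given to either gene, whereas the window above separates them.

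*Agtr1a* lies at chr13:30336441-30382867 and had normalized counts of 70.5, 45.3, 73.8, 52.1 and 55.3 in young and 38.0, 30.5, 62.4, 55.0 and 50.6 in old replicates 1 to 5. Old replicates 1 and 2 lay under every young aorta, and the other 3 old aortae lay within the young range. This gave a log2 fold change of −0.32 ± 0.22 (SE), with a 95% confidence interval from −0.79 to 0.15 and an edgeR adjusted p of 0.390. This estimate was −0.20 without old replicate 2 and −0.44 without old replicate 3, and over the 10 fits without 1 mouse the adjusted p ranged from 0.247 to 0.601.

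*Agtr1b* lies at chr3:20314473-20367177 and had normalized counts of 124, 77.5, 146, 133 and 97.3 in young and 207, 93.7, 128, 203 and 171 in old replicates 1 to 5. Old replicates 1, 4 and 5 lay above every young aorta, while old replicates 2 and 3 lay within the young range. *Agtr1b* gave a log2 fold change of 0.48 ± 0.23 (SE), with a 95% confidence interval from −0.01 to 0.98 and an edgeR adjusted p of 0.196. DESeq2 gave an adjusted p of 0.176. Without old replicate 2 the edgeR adjusted p was 0.0652, and over all 10 fits that left out 1 mouse it ranged from 0.0652 to 0.361. When young replicates 2 and 5 were left out together, the log2 fold change was 0.26 (adjusted p = 0.613).

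The share of *Agtr1a* among the counts of both AT1 genes was 36.3%, 36.9%, 33.6%, 28.1% and 36.2% in young and 15.5%, 24.6%, 32.8%, 21.3% and 22.8% in old replicates 1 to 5. The share in old replicates 1, 2, 4 and 5 lay under that in every young aorta, and old replicate 3 lay among the young values. In old replicate 1 the share of 15.5% rested on 38 and 207 counts, with a 95% Wilson interval from 11.5% to 20.6%, and in young replicate 2 the interval ran from 28.8% to 45.7%. These intervals cover counting error only. The summed normalized count of both genes was 175 ± 37.7 in young and 208 ± 53.4 in old aortae (mean ± SD, n=5; exact permutation p = 0.278).

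The log2 ratio of *Agtr1a* to *Agtr1b* is free of library scaling and was −0.94 ± 0.24 in young and −1.74 ± 0.51 in old aortae (mean ± SD, n=5). The difference of −0.80 ± 0.25 (SE) gave p = 0.0159 in an exact two-sided permutation test, for which the smallest possible p is 0.0079. Adjusted over the 6 ratios tested it was 0.0952, which did not pass 0.05. Without old replicate 3 the difference was −0.97 with an adjusted exact p of 0.0476, and over the 10 runs that left out 1 mouse the adjusted p ranged from 0.0476 to 0.190. Old replicate 3 was the only old aorta that overlapped the young ratios. Leaving it out separated the groups by that choice, and the unadjusted exact p was then the smallest possible.

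**Figure D3:**
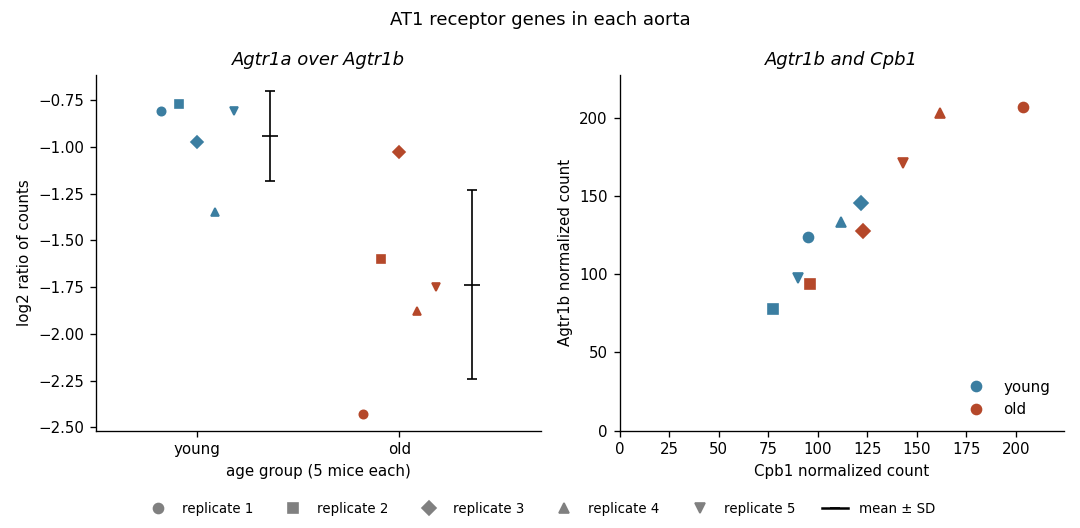
Left, log2 ratio of *Agtr1a* to *Agtr1b* counts in 5 young and 5 old aortae, with the group mean ± SD. Right, normalized count of *Agtr1b* against that of its neighbour *Cpb1*, with both axes from 0 and 1 point per mouse. Old replicate 3 has the only old ratio (−1.03) above the lowest young one (−1.35), and *Agtr1b* and *Cpb1* are both highest in old replicate 1.

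Among 12154 genes with a mean normalized count of at least 50, a pattern like that of *Agtr1b* was looked for over the 10 mice after each group's mean was removed. The 3 most alike were *Ccdc60* (Pearson r = 0.957, Spearman rho = 0.988), *Cpb1* (r = 0.949, rho = 0.988) and *Fhod3* (r = 0.928, rho = 0.952). *Cpb1*, which encodes carboxypeptidase B1, lies at chr3:20248264-20275733 on the same strand as *Agtr1b*, 38739 bases from it. Its normalized counts were 95.1, 77.5, 122, 112 and 90.2 in young and 204, 95.9, 123, 162 and 143 in old replicates 1 to 5. As for *Agtr1b*, old replicates 1, 4 and 5 had the highest values, and old replicate 2 lay within the young range. The log2 fold change of *Cpb1* was 0.56 ± 0.19 (SE, edgeR adjusted p = 0.0775). That of *Ccdc60* was −0.58 ± 0.22 and that of *Fhod3* −0.53 ± 0.26 (SE), opposite in direction to *Agtr1b*, and neither was called. Without the 2 mice farthest from the median of *Agtr1b*, r was 0.889. These are descriptions of the highest of many correlations, and no p is attached to them.

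Of 7 annotated genes within 150000 bases of *Agtr1b*, 2 were tested, *Cpb1* and *Cpa3*, a distance chosen after the position of *Cpb1* had been seen. *Cpa3*, at chr3:20215620-20242181, encodes mast cell carboxypeptidase A3 and was called higher in old aortae, as described with the other enzymes. Around *Agtr1a*, 1 gene was tested within the same distance, *Mboat1*, which was called lower (log2 fold change −0.80 ± 0.19 SE, edgeR adjusted p = 0.0179). Within that distance edgeR called 1 of 3 tested genes around *Agt*, 1 of 7 around *Ace*, 0 of 1 around *Agtr2* and 0 of 12 around *Mas1*, beside 11.5% over all tested genes.

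For *Agt* the most alike genes were *Pcdhb9* (r = 0.926, rho = 0.903), *Rtl8a* (r = 0.926, rho = 0.879) and *Hscb* (r = 0.921, rho = 0.891). For *Ace* they were *Srpx2* (r = 0.965, rho = 0.903), *Zfp36l2* (r = 0.951, rho = 0.830) and *Cd80* (r = 0.946, rho = 0.806), each highest in old replicate 3, and without the 2 mice farthest from the median of *Ace* their r was 0.918, 0.843 and 0.717. Among those most like *Agtr1a* were *BC004004* (r = 0.972, rho = 0.988) and *Arhgdib* (r = 0.966, rho = 0.988). Between the members themselves, r over the 10 mice ran from −0.23 for *Ace* and *Agtr1b* to 0.70 for *Agt* and *Agtr1a*.

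*Agtr2*, which encodes the AT2 receptor and lies at chrX:21484544-21489164, was at the limit of detection. It gave 7 raw counts over the 5 young libraries, 0.0641 CPM (counts scaled to the library totals) with a 95% exact Poisson interval from 0.0258 to 0.132. The 5 old libraries gave 15 raw counts, 7 of them in old replicate 4, or 0.139 CPM with an interval from 0.0776 to 0.229. Both intervals cover counting error only, and they overlap. When the filter was left out, edgeR gave an adjusted p of 0.499. The log2 ratio of *Agtr1a* to *Agtr2* counts was 5.22 ± 1.27 in young and 3.96 ± 0.72 in old aortae (mean ± SD, n=5; exact permutation p = 0.0873, adjusted 0.167). Without young replicate 2 its adjusted p was 0.0476, and in this ratio the *Agtr2* counts ran from 0 to 7. That run left out the only young library whose ratio lay within the old range, so the groups separated by that choice.

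*Mas1*, the gene of the Mas receptor at chr17:12841079-12868143, gave 10 raw counts over the young and 5 over the old libraries. These amount to 0.0916 CPM (95% exact Poisson interval 0.0439 to 0.168) and 0.0462 CPM (0.015 to 0.108). The highest count was 4, in young replicate 1, and old replicate 4 had 0. Without the filter edgeR gave an adjusted p of 0.575, and a difference between young and old aortae was not detectable at this depth. The log2 ratio of *Agtr1a* to *Mas1* did not pass either (exact permutation p = 0.556).

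Of 20 other renin-angiotensin genes in the table, 14 were tested, and edgeR called 4, of which 3 were higher and 1 lower, beside 11.5% over all tested genes. The median log2 fold change was 0.07, beside 0.00 over all tested genes. *Ren1* and *Ace3* were among the 6 under the filter. The gene called lower was *Mme*, which encodes neprilysin, a membrane peptidase that turns angiotensin I into angiotensin-(1-7) and also degrades natriuretic peptides.

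*Mme* had normalized counts of 579, 472, 599, 456 and 596 in young and 296, 223, 270, 305 and 377 in old replicates 1 to 5. Every old aorta lay under every young one. Its log2 fold change was −0.87 ± 0.13 (SE), with a 95% confidence interval from −1.14 to −0.59 and an edgeR adjusted p of 0.00101. It was called in each of the 10 fits that left out 1 mouse.

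**Figure D4:**
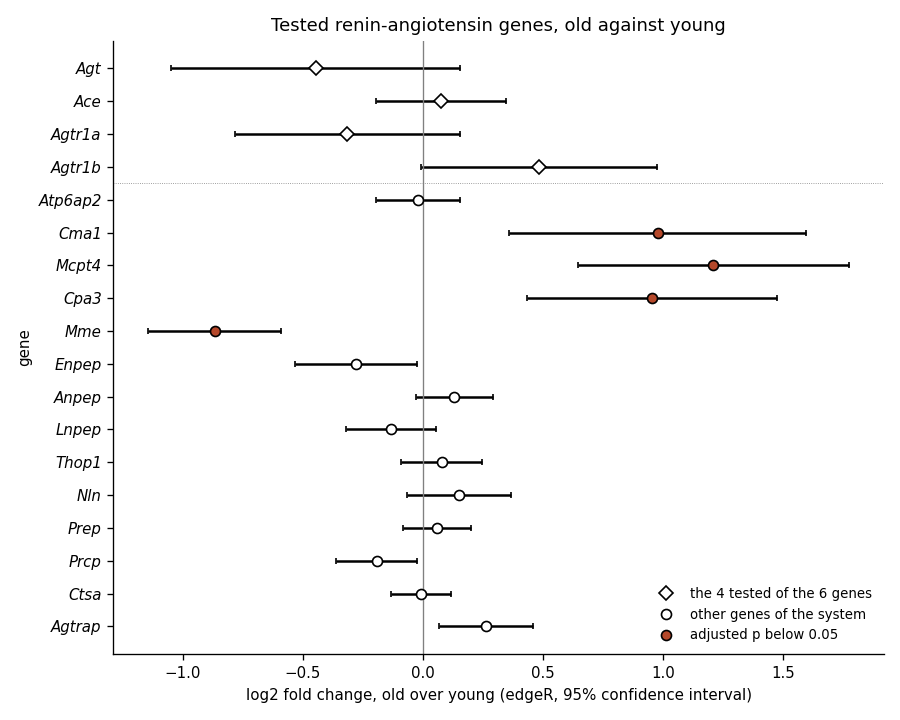
Log2 fold change of old over young aortae (horizontal axis, points) with the edgeR 95% confidence interval (bars) for the 4 tested members above the dotted line and 14 other tested genes of the system below it. Filled points mark an adjusted p below 0.05, which *Cma1*, *Mcpt4*, *Cpa3* and *Mme* have.

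The 3 genes called higher encode mast cell proteases. Chymases cut angiotensin I to angiotensin II without angiotensin-converting enzyme, and *Mcpt4* and *Cma1* encode mouse chymases. *Mcpt4* had normalized counts of 90.0, 33.2, 74.8, 56.0 and 54.3 in young and 145, 157, 150, 179 and 78.8 in old replicates 1 to 5. In old replicate 5 the value lay below that of young replicate 1, and in the other 4 old aortae it lay above the young range. The log2 fold change of *Mcpt4* was 1.21 ± 0.26 (SE, edgeR adjusted p = 0.0106), and it was called in each of the 10 fits without 1 mouse.

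*Cma1* had normalized counts of 47.0, 23.1, 49.9, 44.4 and 28.7 in young and 90.9, 104, 87.6, 59.8 and 37.9 in old replicates 1 to 5. Old aortae differed from young by 0.98 ± 0.29 on the log2 scale (SE, edgeR adjusted p = 0.0432). This call was lost in 7 of the 10 fits without 1 mouse, those without young replicates 2, 4 or 5 or old replicates 1, 2, 3 or 4, where its adjusted p reached 0.101, and also by limma-voom (adjusted p = 0.0735) and with the replicate number as a block (0.0515).

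*Cpa3* had normalized counts of 52.1, 38.2, 71.8, 56.0 and 30.7 in young and 98.9, 101, 104, 119 and 57.4 in old replicates 1 to 5. For *Cpa3* the log2 fold change was 0.95 ± 0.24 (SE, edgeR adjusted p = 0.0216). It lost its call without young replicate 2 (adjusted p = 0.0573) or old replicate 4 (0.0541). For each of the 3 protease genes, old replicate 5 was the lowest old aorta.

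The 9 mast cell markers include these 3 genes, so the lists are not independent. Of 6 tested, 4 were called higher and 1 lower by edgeR, beside 6.48% higher and 4.99% lower over all tested genes. Over the alternative settings run, the calls in this list ranged from 0 to 6. The other gene called higher was *Tpsb2*, a tryptase gene, at 0.92 ± 0.24 on the log2 scale (SE, edgeR adjusted p = 0.024), and it lost its call without young replicates 2 or 5 or old replicates 3 or 4. *Kit*, the stem cell factor receptor gene, was called lower, at −0.90 ± 0.25 (SE, edgeR adjusted p = 0.0427), but of the 10 fits without 1 mouse only those without young replicate 2 or old replicate 1 called it. Its call was also lost without the filter (adjusted p = 0.125) and with library size alone (0.0518). The markers summed to 1085, 592, 1240, 908 and 852 in young and 952, 811, 745, 943 and 705 in old replicates 1 to 5, and *Kit* had the highest count of the list in each library. The genes of the IgE receptor chains, *Fcer1a* and *Ms4a2*, and the tryptase gene *Tpsab1* were under the filter and are named because their values had been seen. *Fcer1a* ran from 0.997 to 3.86 in young and from 6.00 to 13.0 in old aortae without overlap. *Ms4a2* had means of 1.81 in young and 4.20 in old aortae, and *Tpsab1* of 3.98 and 4.79. Without the filter edgeR gave an adjusted p of 0.0106 for *Fcer1a*, 0.433 for *Ms4a2* and 0.859 for *Tpsab1*. DESeq2 gave adjusted p values of 0.00740, 0.438 and 0.881 in the same order. *Hdc*, the histidine decarboxylase gene and the tested marker that was not called, gave a log2 fold change of −0.20 ± 0.46 (SE, edgeR adjusted p = 0.829). How many mast cells each aorta held was not tested.

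**Figure D5:**
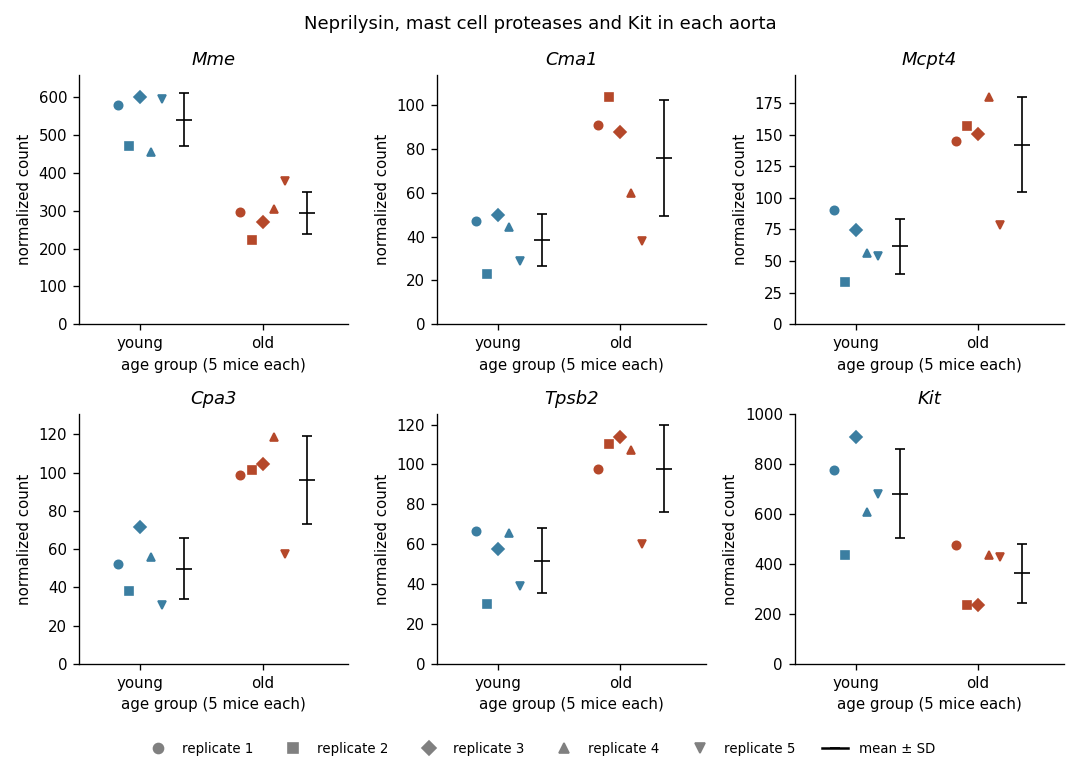
Normalized counts of *Mme*, *Cma1*, *Mcpt4*, *Cpa3*, *Tpsb2* and *Kit* (vertical axes, each from 0) in 5 young and 5 old aortae, with 1 symbol per mouse and the group mean ± SD. The old values of *Mme*, up to 377, lie under the young values, and for the 4 protease genes old replicate 5 is the lowest of the old aortae.

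*Myh6*, a cardiac myosin gene named after its values had been seen, had normalized counts of 161 in young replicate 2, 77.9 in young replicate 5 and at most 6.76 in the other 8 aortae. The summed striated muscle markers did not set both libraries apart, with 1172 in young replicate 2, 500 in young replicate 5, 345 to 552 in the other young and 690 to 1761 in the old aortae. When these 2 libraries were left out together, a run chosen on *Myh6* alone after the data had been seen, edgeR called 780 genes and none of the 3 protease genes. In that run the adjusted p was 0.234 for *Cma1*, 0.0594 for *Mcpt4* and 0.131 for *Cpa3*, with log2 fold changes of 0.69, 0.95 and 0.68. *Tpsb2* and *Kit* also lost their calls there (adjusted p = 0.130 and 0.0520), with log2 fold changes of 0.63 and −1.08. *Mme* was still called (adjusted p = 0.00686). Of the called genes named below, *Lox*, *Edn1*, *Cpd*, *Hsd11b1* and *Lum* kept their calls in that run and the others lost them. Fewer mice as well as the choice of libraries separate that run from the full comparison.

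The aminopeptidase genes of the system were not called. *Enpep*, whose aminopeptidase A makes angiotensin III, had a log2 fold change of −0.28 ± 0.12 (SE) and an edgeR adjusted p of 0.146. For *Anpep*, aminopeptidase N, it was 0.13 ± 0.08 (adjusted p = 0.289), and for *Lnpep*, the angiotensin IV binding aminopeptidase, −0.13 ± 0.09 (adjusted p = 0.366). *Ctsa*, cathepsin A, gave −0.01 ± 0.06, and 17.4% of its exonic sequence is overlapped by genes on the other strand. The 4 remaining peptidase genes, *Thop1*, *Nln*, *Prep* and *Prcp*, ran from −0.19 to 0.15.

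*Atp6ap2*, the (pro)renin receptor gene, had a log2 fold change of −0.02 ± 0.08 (SE, edgeR adjusted p = 0.905). *Agtrap* encodes a protein that binds the AT1 receptor and promotes its internalization. Its normalized counts were 994, 831, 895, 790 and 837 in young and 891, 940, 1239, 1096 and 1017 in old replicates 1 to 5. Old replicates 3, 4 and 5 lay above every young aorta, and the log2 fold change was 0.26 ± 0.09 (SE, edgeR adjusted p = 0.0819). *Agtrap* was called without young replicate 1 (adjusted p = 0.0319) and without old replicate 1 (adjusted p = 0.0484), and over the 10 fits without 1 mouse its adjusted p reached 0.185.

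All 23 genes for the coupling and trimming of angiotensin receptors were tested, and edgeR called 2 higher and 1 lower, beside 11.5% over all tested genes, with a median log2 fold change of 0.03. *Gnaq*, the G protein subunit through which AT1 receptors activate phospholipase C, had normalized counts of 2245, 2230, 2332, 2130 and 2248 in young and 1952, 1758, 1797, 2075 and 1917 in old aortae. The groups did not overlap, and *Gnaq* was lower by a log2 fold change of −0.23 ± 0.06 (SE, edgeR adjusted p = 0.019), a call lost with the replicate number as a block (adjusted p = 0.0695). *Arrb2*, which encodes beta-arrestin 2, was higher without overlap, at 306 ± 18.7 in young and 412 ± 61.1 in old aortae (mean ± SD, n=5; log2 fold change 0.43 ± 0.10 SE, edgeR adjusted p = 0.0133). *Plcb2*, a phospholipase C gene, rose from 7.86 ± 3.40 to 25.8 ± 15.8 (SD, n=5; edgeR adjusted p = 0.025), a call lost in 5 of the 10 fits without 1 mouse (young replicates 2, 4 and 5 and old replicates 2 and 3) and by limma-voom (adjusted p = 0.0529). The highest *Plcb2* value, 49.4, was in old replicate 3, and the other phospholipase C genes of the list were more abundant and not called. *Rgs5*, the most abundant of the list per kilobase, was not called (log2 fold change 0.25 ± 0.21 SE, and 0.12 without young replicate 2).

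Of 20 tested vascular genes known to respond to angiotensin II, 3 were called higher and 4 lower, beside 11.5% over all tested genes, and their median log2 fold change was −0.05. *Edn1*, the endothelin-1 gene, had normalized counts of 614, 455, 741, 397 and 410 in young and 178, 157, 160, 193 and 104 in old aortae. Each old aorta was under each young one, and the difference was −1.72 ± 0.21 on the log2 scale (SE, edgeR adjusted p = 0.000445). *Lox*, which encodes lysyl oxidase, fell from 7095 ± 933 to 2827 ± 604 (SD, n=5; edgeR adjusted p = 0.000241). *Ccn2*, the connective tissue growth factor gene and the most abundant of the list per kilobase, was called lower at −0.76 ± 0.17 (SE, edgeR adjusted p = 0.0149). An antisense gene overlaps 23.2% of its exonic sequence, and its call was lost when the filter was left out (adjusted p = 0.067) and with the replicate number as a block (0.0618). *Tgfb1* was higher, at 772 ± 46.1 in young and 953 ± 93.8 in old aortae (mean ± SD, n=5; log2 fold change 0.31 ± 0.07 SE, edgeR adjusted p = 0.0148). Without young replicate 2 the list held 4 calls.

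Kinins are degraded by angiotensin-converting enzyme, which ties their pathway to this one. Of 6 tested kallikrein-kinin genes, 3 were called higher and 1 lower, beside 11.5% over all tested genes, with a median log2 fold change of 0.33. *Bdkrb2*, the bradykinin B2 receptor gene, had normalized counts of 125, 118, 94.7, 94.6 and 130 in young and 115, 202, 205, 151 and 204 in old replicates 1 to 5. Old replicate 1 alone lay in the young range, and the log2 fold change was 0.65 ± 0.17 (SE, edgeR adjusted p = 0.0252). The call was lost in 5 of the 10 fits without 1 mouse (young replicates 3 and 4 and old replicates 2, 3 and 5). *Serping1*, the C1 inhibitor gene and the most abundant of the list per kilobase, was called higher at 0.30 ± 0.08 (SE, edgeR adjusted p = 0.0244), and its call too was lost in 5 of these fits (young replicates 3 and 4 and old replicates 3, 4 and 5) and with the replicate number as a block (adjusted p = 0.0918). *Kng2*, a kininogen gene that shares 19.4% of its 50-base windows with *Kng1* and is therefore uncertain, had normalized counts of 20.4, 10.1, 2.99, 7.73 and 6.15 in young and 24.0, 97.0, 62.4, 35.7 and 41.8 in old aortae (edgeR adjusted p = 0.00576). *Cpd*, carboxypeptidase D, was lower, with 2896 ± 311 in young and 2157 ± 121 in old aortae (mean ± SD, n=5; edgeR adjusted p = 0.00319). Without young replicates 3 or 4 or old replicates 3 or 5 the list held 2 calls.

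Aldosterone synthesis is driven by angiotensin II in the adrenal gland. Of 9 tested genes of the mineralocorticoid and glucocorticoid receptor axis, 1 was called, beside 11.5% over all tested genes, and the median log2 fold change was 0.18. *Hsd11b1*, whose enzyme regenerates active glucocorticoid, had normalized counts of 1102, 954, 742, 868 and 880 in young and 1265, 1267, 1541, 1497 and 1610 in old aortae. The groups did not overlap, and the log2 fold change was 0.67 ± 0.10 (SE, edgeR adjusted p = 0.00121). *Tsc22d3*, the most abundant per kilobase, was not called (−0.42 ± 0.37 SE, edgeR adjusted p = 0.52), and its log2 fold change was −0.22 without young replicate 5.

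Markers of the vessel wall were present in each library. The 8 smooth muscle markers summed to between 800307 and 949963 in young and between 740028 and 905428 in old aortae, with *Acta2* the most abundant, and 1 of them, *Smtn*, was called higher (log2 fold change 0.29 ± 0.07 SE, edgeR adjusted p = 0.0217), beside 11.5% called over all tested genes. Of the 8, 4 had a log2 fold change above 0, and the median was 0.00. Antisense genes overlap 16.3% of the exonic sequence of *Smtn*, and its call was lost without young replicates 3 or 5 or old replicate 5 and with the replicate number as a block (adjusted p = 0.0819). The 10 endothelial markers summed to 28343 ± 6704 in young and 18096 ± 5588 in old aortae (mean ± SD, n=5; exact permutation p = 0.0317, adjusted over 14 marker lists 0.222). Of these, 9 had a log2 fold change below 0 and 1, *Tek*, was called lower by edgeR (−0.87 ± 0.23 SE, adjusted p = 0.0381), while DESeq2 and limma-voom called 5 and the fit without old replicate 2 called 6. Their median log2 fold change was −0.58. *Pecam1*, the most abundant per kilobase, gave −0.72 ± 0.21 (SE, edgeR adjusted p = 0.0554; 0.0108 and called without old replicate 2, and 0.0108 to 0.116 over the 10 fits without 1 mouse). *Tek* lost its call in 6 of the 10 fits without 1 mouse (young replicates 1, 3 and 5 and old replicates 1, 3 and 5), with the replicate number as a block (adjusted p = 0.178) and without the filter (0.101). *Edn1* and *Ace* are transcribed in endothelium, and the part of endothelial RNA in their values was not tested.

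Of 10 fibroblast markers 2 were called, beside 11.5% over all tested genes, and *Lum* was higher (log2 fold change 0.58 ± 0.10 SE, edgeR adjusted p = 0.00296) and *Pi16* lower (−0.58 ± 0.13 SE, edgeR adjusted p = 0.0147; 0.0759 and not called with the replicate number as a block), and *Dcn* was the most abundant. Of 8 macrophage markers, 5 were called higher and 0 lower by edgeR, beside 6.48% and 4.99% over all tested genes, with a median log2 fold change of 0.70 beside 0.00. *Fcgr1* had the smallest p (0.98 ± 0.23 SE, edgeR adjusted p = 0.0142), followed by *Cd68* (0.83 ± 0.19 SE), *Adgre1* (0.80 ± 0.20 SE) and *C1qb* (0.71 ± 0.18 SE). *Lyz2*, the most abundant, shares 15.4% of its windows with *Lyz1*. Without young replicates 2, 4 or 5, and without the filter, 2 of the 8 were called. DESeq2 called all 8, and edgeR called 0 when young replicates 2 and 5 were left out together, with an adjusted p of 0.0660 for *Fcgr1* and 0.172 for *C1qb*. *Adgre1* lost its call without young replicates 2, 4 or 5, and *C1qb* without young replicates 2, 3, 4 or 5 or old replicate 2 and with the replicate number as a block (adjusted p = 0.109). The macrophage sum gave an exact permutation p of 0.0159, or 0.222 adjusted over 14 marker lists.

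Of 5 tested striated muscle markers, 1 was called, *Tnnt2*, which was higher (log2 fold change 1.74 ± 0.35 SE, edgeR adjusted p = 0.0116), beside 11.5% over all tested genes. Of the 5, 2 had a log2 fold change above 0, with a median of −0.26 and a lowest value of −1.02. No gene was called by edgeR among 7 pericyte, 6 Schwann cell, 2 lymphocyte, 1 kidney tubule and 1 adrenal cortex markers that were tested, beside 11.5% over all tested genes, and none of the 5 mesothelial markers passed the filter. Without young replicate 1, 3 Schwann cell markers and 1 pericyte marker were called, without old replicate 1 the pericyte markers held 1 call, and DESeq2 called 1 lymphocyte marker. Their most abundant genes per kilobase were *Rgs5*, *S100b*, *Cd79a*, *Aqp2*, *Star* and *Krt19*. *Umod* and *Slc34a1*, which define kidney tubules, had 0 counts in every library, and *Cyp11b2*, the aldosterone synthase gene, had a normalized count of 0.93 in old replicate 3 and 0 in the others.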

How the data were processed

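The authors trimmed the reads with fastp 0.20.0, aligned them to GRCm38 with STAR 2.7.0f and counted them per gene with featureCounts of Subread 1.6.4, as given in the submitters' processing notes and the study's methods. The deposited values are raw counts per gene symbol, without normalization, in 10 libraries from poly(A) RNA. Counts were filtered with filterByExpr and compared between old and young aortae with edgeR 4.0.16 (robust quasi-likelihood F test, TMM scaling, no covariates) under R 4.3.3, with Benjamini-Hochberg adjustment over all 14614 tested genes. DESeq2 1.42.0 size factors gave the normalized counts, and DESeq2 and limma 3.58.1 (voom) served as alternatives. Ratios, marker sums and summed levels were compared by exact two-sided permutation tests. Correlations used log2 of the normalized count plus 1. The count tests were tested on simulated data.

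Symbols were matched to GENCODE M21 (GRCm38) for position, exonic length and overlap, and all 6 members matched. The study's methods name another GENCODE release for the alignment, so lengths, overlaps and shared windows may differ from those behind the counts. Total counts of 19640401 to 22886153 limit low genes. No library repeats another of its own group, the chi-square over degrees of freedom for 20 pairs within the groups being 8.61 to 64.1. Pairs of a young with an old library were not compared in this way.

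Beside the members, the genes named are the called genes and the 6 most abundant per exonic length of the other renin-angiotensin genes, and of each further list up to 4 called genes with the smallest p and the most abundant per exonic length. For each tested member the 3 most correlated genes are named. From these, 3 genes and a ratio with 1 of them are not reported here. The members and lists were chosen with earlier results of these data known. The alternatives were other tools, scalings and low-count filters, the replicate number as a block, and each mouse left out in turn.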

Additional observations from a re-analysis of the deposited data

Results flagged for a closer look

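Of 106 groups of 5 mice tested over 53 quantities, 8 held a mouse whose gap to the nearest of the others was over 0.71 of the group's range. Chance flags about 1 in 20 groups where values are normally distributed, which was not shown for these counts and sums.

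In old replicate 3, 5 quantities stood apart. *Ace* had a normalized count of 19470 there, against 12567 to 13397 in the other old aortae. *Ctsa* had 4587, against 4103 to 4237. The summed macrophage markers reached 20772, against 10232 to 12496, the summed lymphocyte markers 278, against 30.0 to 76.3, and the summed striated muscle markers 1761, against 690 to 1000.4. The quantities share 1 library and are not independent of each other.

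In old replicate 1, the summed liver markers were 1119, against 136 to 375 in the other old aortae. In young replicate 1, the summed Schwann cell markers were 1501, against 663 to 854 in the other young aortae. In young replicate 2, the summed striated muscle markers were 1172, against 345 to 552. The reasons for these values were not tested.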

How the results depend on the processing

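None of the 4 tested members was called in any of the settings run, and none showed a young or old level that stood clear of the other group. Of 72 alternative log2 fold changes of the members, 71 kept the direction and the lack of a call. The exception was *Ace*, whose log2 fold change was −0.0694 without old replicate 3 and up to 0.12 without young replicate 3, and whose log2 difference of mean levels ran from −0.0757 to 0.12 in the same runs. For *Agt* the log2 fold change ran from −0.72 without young replicates 2 and 5 to −0.32 without young replicate 1, and for *Agtr1a* from −0.46 without young replicates 2 and 5 to −0.20 without old replicate 2. For *Agtr1b* it ran from 0.26 without young replicates 2 and 5 (adjusted p = 0.613) to 0.62 without old replicate 2. The log2 difference of mean levels ran from 0.49 to 1.54 for *Agtr2* and from −1.46 to −0.54 for *Mas1*. For *Agtr1b* the log2 difference of mean levels ran from 0.36 without young replicate 2 to 0.62 without old replicate 2. With no mouse left out, an exact permutation test of its level gave p = 0.127. Over 12 alternative runs the exact permutation p ran from 0.0397 to 0.246. Only the run without old replicate 2, the old aorta with the lowest *Agtr1b* count, gave a p below 0.05. These p values were not adjusted over the members. The ratio of *Agtr1a* to *Agtr1b* differed by −0.97 without old replicate 3 and by −0.62 without old replicate 1. That of *Agtr1a* to *Agtr2* differed by −1.64 without young replicate 2 and by −0.76 without young replicate 3. That of *Agt* to *Ren1* differed by 0.46 without young replicate 5 and by 1.01 without young replicate 1. That of *Agtr1a* to *Mas1* differed by −0.0265 without old replicate 4 and by 0.81 without old replicate 2.

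The number of genes called over all tested genes was 1676 by edgeR, 2297 by DESeq2 and 1695 by limma-voom. It was 1699 with DESeq2 size factors, 1648 with library size alone, 1601 without the filter and 1686 with a mean count of at least 10. With the replicate block 1261 genes were called, 467 of them lower against 729 without the block, and for *Agtr1b* the adjusted p was 0.123. The block ended the calls of *Cma1*, *Gnaq*, *Ccn2*, *Serping1*, *Smtn*, *Tek*, *Pi16* and *C1qb*, with an adjusted p from 0.0515 to 0.178. Replicate numbers were not shown to pair mice, since the correlation of paired residuals ran from −0.29 to 0.13, and 2 of 5 numbers matched best with their own. When 1 mouse was left out, the genes called ran from 1132 to 2367, and those called lower numbered 1139 without young replicate 1 and 474 without young replicate 4. Without young replicates 2 and 5, chosen after the data had been seen, 780 genes were called, 411 higher and 369 lower.

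Of the other renin-angiotensin genes, 3 were called higher, against 1 without young replicate 2, 4 without young replicate 1 and 0 without young replicates 2 and 5. Called lower was 1, against 2 without young replicate 1 and 1 without young replicate 3. In the receptor coupling list 3 were called, against 2 without young replicate 2, 5 without young replicate 1 and 0 without young replicates 2 and 5. Among angiotensin II-responsive genes 7 were called, against 9 by DESeq2, 8 by limma-voom, 8 with the block, 4 without the filter, 4 without young replicate 2, 8 without young replicate 3 and 2 without young replicates 2 and 5. Among kallikrein-kinin genes 4 were called, against 2 without young replicate 3, 4 without young replicate 1 and 1 without young replicates 2 and 5. Among factors acting on *Agt* transcription 1 was called, against 2 without young replicate 1 and 1 without young replicate 2.

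Estimates near 0 turned direction. The log2 fold change of *Atp6ap2* was −0.02, against 0.00646 with library size alone, 0.0232 without young replicates 2 and 5, and −0.0753 to 0.0188 over the runs without 1 mouse. For *Ctsa* it was −0.01, against 0.0180 with library size alone, 0.00588 without young replicates 2 and 5, and −0.0356 to 0.0156 without 1 mouse. For *Alb* it was −0.23, and it ran from −1.03 without old replicate 1 to 0.0885 without young replicate 4. The cause of these shifts was not tested. With 5 mice per group, changes smaller than the intervals given for the members could not be told from no change.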
